A study of Mus musculus with 8 samples.

Results

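KPAW and wild-type mouse eyes were compared at 5 days of age, on 4 of the 8 arrays of the study. The arrays were 2 of KPAW eyes and 2 of wild-type eyes, taken by their titles, and each pair was numbered I and II. The wild type at 5 days was C57Bl6 per the labels. The strain of the wild type at 1 month is not stated here. The labels neither expand the name KPAW nor give its alleles or its strain, so a difference of strain and the difference that KPAW names cannot be told apart here. Total RNA of eyes was hybridized to an Affymetrix mouse expression array that measures each transcript with a probe set, a group of short oligonucleotides. The other 4 arrays, of KPAW and wild-type eyes at 1 month, entered only the estimate of spread and the comparison of ages. The labels do not say whether arrays I and II come from separate animals, so each p-value measures only the spread between these arrays, which may be technical.

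At 5 days a mouse eye is unfinished. The lids are still closed and the corneal surface is a thin epithelium. The lens fibres are laid down already, rods are still maturing in the outer retina, and the stroma of cornea, sclera and choroid is laying down collagen. The surface of the eye continues into conjunctiva, lid skin and hair follicles. Krt5 and Krt14 mark the basal layer of such epithelia, Krt12 marks corneal epithelium, Krt1, Krt10 and loricrin (Lor) mark keratinizing epidermis, and Krt71 marks the inner root sheath of hair.

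Of 22626 probe sets other than controls, 15838 passed the filter on low signals, and they represented 9492 genes. Signals are given after each array was scaled to a common trimmed mean, in arbitrary units. The closest pair of arrays crossed the genotypes: wild type II and KPAW II correlated at 0.980 across probe sets, with 77 probe sets differing over 2-fold. The 2 wild-type arrays correlated at 0.964 with 224 such probe sets, and the 2 KPAW arrays at 0.946 with 437, of which 349 were higher in KPAW I. KPAW I also differed from the other 3 arrays in sex-linked transcripts. Xist, the RNA that coats an inactive X chromosome, had signals of 2.95 and 3.64 in wild type I and II, 0.0821 in KPAW I and 3.13 in KPAW II. The Y-linked Eif2s3y had a signal of 0.149 in KPAW I and of at most 0.0126 in the other 3 arrays, where it was at the lowest value of the file.

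No probe set passed an adjusted p under 0.05 (limma with Benjamini-Hochberg adjustment over 15838 probe sets), and the lowest adjusted p was 1.00. At an unadjusted p under 0.05 there were 378 probe sets, or 2.39%, where 791.9 would be counted if no probe set differed. No difference named below passed this test, so each is given as the values of the 4 arrays, with "lay higher" or "lay lower" only for groups that do not overlap. Among the 9492 genes, the KPAW pair exceeded the wild-type pair without overlap in 14.9% and fell short of it in 18.8%. The count of each gene list below is to be read against these shares. Only 10 genes were both separate and more than 2-fold apart on the log2(signal + 0.0211) scale, 8 of them higher and 2 lower in KPAW. Without KPAW II, 27 probe sets passed, 26 higher and 1 (Xist) lower, which is the contrast of KPAW I alone with both wild-type arrays.

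**Figure D1:**
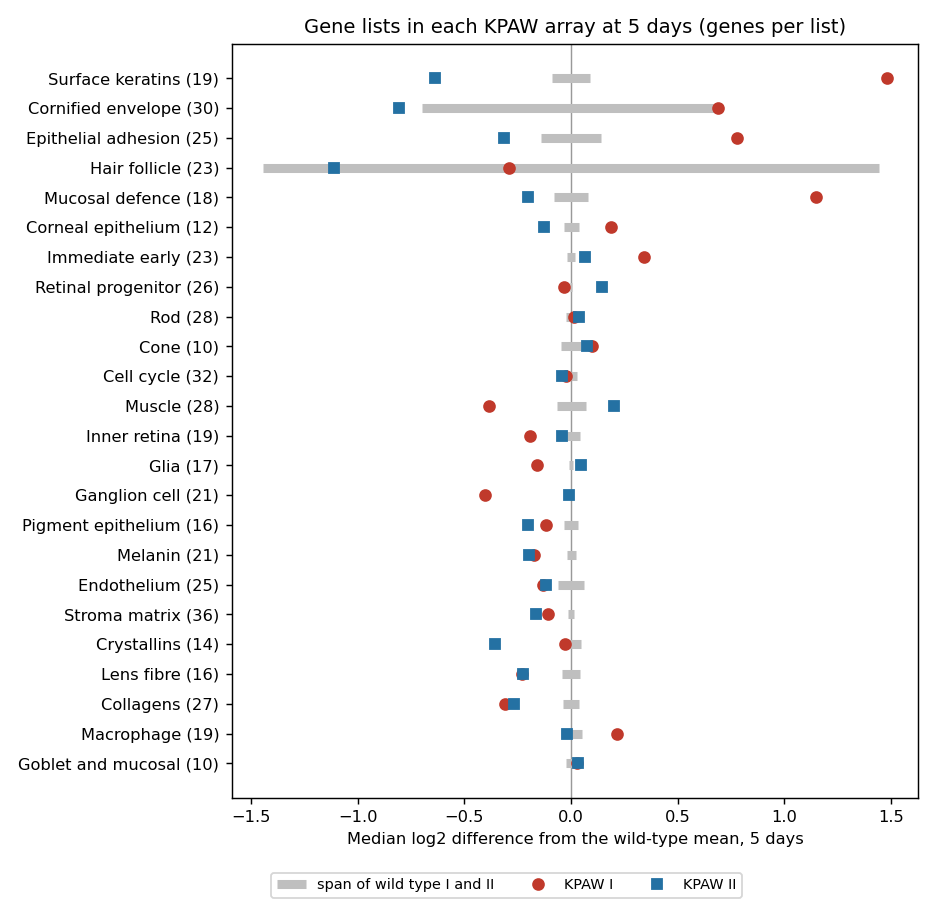
Median log2 difference from the wild-type mean for 24 of the gene lists at 5 days, as a circle for KPAW I and a square for KPAW II, with the number of genes per list in brackets. The grey bar is as wide as the median log2 difference between wild type I and II; the surface keratins lie at 1.48 for KPAW I and -0.64 for KPAW II, whereas both arrays lie together below 0 for collagens (-0.31 and -0.27).

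The keratins of surface epithelium set the 2 KPAW arrays apart from each other, not KPAW from wild type. The list held basal, mucosal and epidermal keratins, and epidermal transcripts followed another split, given below. Over the 19 genes measured, the median log2 difference from the wild-type mean was 1.48 for KPAW I and -0.64 for KPAW II (-0.01 and -0.00 over all genes). The summed signals of all 20 genes of this list on the array were 8.37 and 4.93 in wild type, 26.4 in KPAW I and 3.22 in KPAW II. KPAW I was the highest of the 4 arrays for 14 of the 19 genes, scaled or as deposited. Over all genes it was the highest for 917 of 9492 as deposited. Scaled, it was above both wild-type arrays for 32.1% of all genes. For 15 of the 19 keratins neither KPAW II nor a wild-type array was at the lowest value of the file. KPAW II was the lowest array for 12 of these 15, and for 2438 of 9365 such genes in all. As deposited, KPAW II was the lowest for 6 of the 19, and for 218 of all 9492. By its probe set of highest signal, only Krt8, a keratin of simple epithelia, lay higher in both KPAW arrays, at 0.559 and 0.226 against 0.193 and 0.180 in wild type (log2 difference 0.87 ± 0.34, SE). Its other 2 probe sets overlapped and were lowest in KPAW II, at 0.163 against 0.224 and 0.181 in wild type, and at 0.108 against 0.218 and 0.136.

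Basal keratins showed this first. Krt5 signals were 0.881 and 0.680 in wild type I and II, 2.995 in KPAW I and 0.489 in KPAW II. Krt14, its partner in the basal layer, had signals of 0.361 and 0.363 in wild type, 3.69 in KPAW I and 0.169 in KPAW II. The same order held for keratins of wounded or mucosal epithelium. Krt6a, induced in healing epithelium, had signals of 0.295 and 0.293, then 4.76 and 0.209. Krt16, its type I partner, was at the lowest value of the file in both wild-type arrays, and had a signal of 2.18 in KPAW I and 0.00999 in KPAW II. Krt4 and Krt13, the keratin pair of moist stratified epithelia such as conjunctiva, reached 1.40 and 1.26 in KPAW I. In the other 3 arrays Krt4 had a signal of at most 0.165 and Krt13 of at most 0.0932. For all 6 of these genes KPAW I was far above the other 3 arrays, and KPAW II was not above both wild-type arrays. Another probe set of Krt14 shared this, with 0.333 and 0.193 in wild type and 2.75 and 0.134 in KPAW. A weaker probe set of Krt14 did not, with 0.0470 and 0.0592, then 0.0655 and 0.0470. Nor did Trp63, a fixed marker of surface epithelium, with 0.0843 and 0.0417 in wild type and 0.0928 and 0.0320 in KPAW. Its signal was higher in both arrays numbered I. The order of the other 3 arrays for Krt16 has no meaning, since it comes from the scaling of values at or near the lowest of the file.

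Of the 27 probe sets called without KPAW II, 9 were keratin probe sets of 7 genes. The others included the desmosomal cadherin Dsc2, the water channel Aqp3 of basal epithelia, the mucin Muc1, and the cornified envelope precursors Sprr1b and Sprr2h. That KPAW II was low for most of them follows from the choice, since none passed with KPAW II included. Eif2s3y and Uty, both Y-linked, were among the 26, so the male transcripts and the surface keratins distinguish the same array, and the part of either in the other was not tested.

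Epidermal and hair transcripts followed another split, being high in both arrays numbered I. Krt1 signals were 1.47 in wild type I, 0.124 in wild type II, 0.835 in KPAW I and 0.0808 in KPAW II. Krt10 had signals of 1.25 and 0.143 in wild type and 0.814 and 0.141 in KPAW. Lor was measured at 0.620 and 0.298 in the arrays numbered I and was at the lowest value of the file in both arrays numbered II. The hair keratin Krt71 was highest in wild type I at 1.26, followed by KPAW I at 0.214, with 0.0864 and 0.0866 in the arrays numbered II. Across the 23 hair follicle genes measured, 22 were higher in wild type I than in wild type II. The median difference of these arrays was 2.89 on the log2 scale, and -0.00 over all genes. The summed signals of all 28 genes of this list on the array were 11.7, 1.58, 3.29 and 1.70 in wild type I, wild type II, KPAW I and KPAW II. Epidermal and hair markers were thus low in wild type II and KPAW II, the pair of arrays that correlated best.

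Differentiated corneal genes were mixed. Krt12, the keratin of differentiated corneal epithelium, had signals of 0.553 and 0.548 in wild type and 0.721 and 0.739 in KPAW, so the groups lay apart by 0.39 ± 0.92 (log2, SE). The error includes the spread at 1 month, where the KPAW signals were 0.391 and 5.13. Aldh3a1, an abundant soluble enzyme of corneal epithelium, ran the other way within KPAW, with 0.0487 in KPAW I and 0.162 in KPAW II, around wild-type signals of 0.173 and 0.102. Psca, a surface antigen of stratified epithelia, followed the basal keratins, at 0.224 in KPAW I and at the lowest value of the file elsewhere. Of 12 differentiated corneal epithelium genes measured, 2 lay higher and 2 lower (16.7% each), against 14.9% and 18.8% of all genes. The medians of these 12 were 0.19 for KPAW I and -0.13 for KPAW II. Their summed signals were 6.92 and 6.93 in wild type, 8.76 in KPAW I and 5.68 in KPAW II, of which Gsto1, a glutathione transferase, made 0.644, 1.20, 2.88 and 0.794. The goblet cell markers Muc5ac and Agr2 had signals between 0.00901 and 0.0136 on all 4 arrays, at or near the lowest value of the file. Of the 10 goblet and mucosal genes measured, 3 lay higher and 2 lower (30% and 20%), against 14.9% and 18.8% of all genes. The summed signals of all 16 genes of this list on the array were 1.92 and 1.86 in wild type and 2.11 and 1.94 in KPAW. Muc1, a membrane mucin of many epithelia, had a signal of 0.188 in KPAW I and of at most 0.0138 elsewhere, and Creb3l1, a secretory pathway factor, had 0.128 and 0.126 against 0.135 and 0.150.

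**Figure D2:**
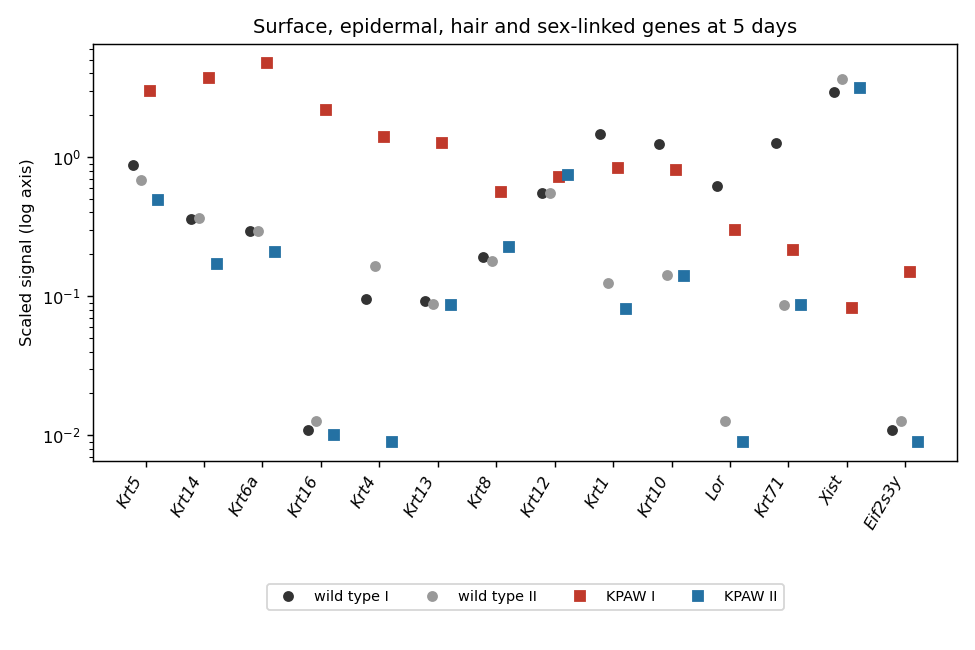
Scaled signal (log axis) of surface, epidermal, hair and sex-linked genes on each of the 4 arrays of 5 days. KPAW I stands alone for Krt5 to Krt13, Xist and Eif2s3y (Krt14 3.69 against at most 0.363), whereas Krt1, Krt10, Lor and Krt71 are high in wild type I and KPAW I.

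The stretches before the transcription starts of 5 keratins are shown because their genes follow the patterns above: high in KPAW I alone, close in all arrays, or high in both arrays numbered I. Sequences are the 100 bases before the start in RefSeq annotation of GRCm38.p6, 5′ to 3′ on the gene's strand. Capitals mark the TATA box word TATAAA, the CCAAT box word CCAAT or the GC box word GGGCGG, on either strand.
Krt5, GRCm38.p6, chr15:101712906-101713005, minus strand: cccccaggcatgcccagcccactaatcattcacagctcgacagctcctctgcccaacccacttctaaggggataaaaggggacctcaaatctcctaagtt
Krt14, GRCm38.p6, chr11:100206031-100206130, minus strand: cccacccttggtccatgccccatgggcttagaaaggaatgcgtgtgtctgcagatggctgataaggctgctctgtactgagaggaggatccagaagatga
Krt12, GRCm38.p6, chr11:99422260-99422359, minus strand: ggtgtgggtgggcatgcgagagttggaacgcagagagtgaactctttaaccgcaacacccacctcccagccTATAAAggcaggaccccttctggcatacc
Krt10, GRCm38.p6, chr11:99389365-99389464, minus strand: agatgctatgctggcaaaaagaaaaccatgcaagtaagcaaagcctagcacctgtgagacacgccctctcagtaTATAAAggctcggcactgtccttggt
Krt71, GRCm38.p6, chr15:101743098-101743197, minus strand: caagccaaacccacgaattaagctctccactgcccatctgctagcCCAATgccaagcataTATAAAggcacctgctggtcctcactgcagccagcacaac
TATAAA stands 40 bases before the start of Krt71, 29 before that of Krt12 and 26 before that of Krt10, and none of the 3 words is in the stretches of Krt5 and Krt14. TATAAA, on either strand, was within 250 bases before the start in 13.0% of 27025 promoters, taking the first listed start of each gene. It was there in 10 of the 16 hair follicle genes with a sequence (62.5%) and in 15 of 27 cornified envelope genes (55.6%). In the list of basal, mucosal and epidermal keratins it was there in 1 of 10. A match is a description of the letters and not a site.

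In contrast to the surface genes, most collagen genes lay lower in KPAW on the scaled values. Of 27 collagen genes measured, 20 lay lower and 1 (Col2a1) higher in KPAW, or 74.1% and 3.70% against 18.8% and 14.9% of all genes. The median difference was -0.27 on the log2 scale, with -0.31 for KPAW I and -0.27 for KPAW II, where all genes gave -0.01. None was called. In the same-numbered pairs, 23 of 27 were lower in KPAW in both, against 28.1% of all genes. The medians were -0.33 for the arrays numbered I and -0.23 for those numbered II. The labels do not say that a number pairs arrays, and the part of surface tissue in the difference was not tested. Without scaling, on the values as deposited, the median of the collagens was -0.09 against 0.17 for all genes, and 1 of the 27 lay lower in KPAW, against 1.496% of all genes. Of the 27, 14 were among the 1899 genes of highest signal, of which 27.9% lay lower, with a median difference of -0.05.

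The fibril-forming collagens come first. Col5a1, which sets fibril diameter in cornea and sclera, had signals of 0.846 and 0.803 in wild type and 0.575 and 0.488 in KPAW. The log2 difference was -0.62 ± 0.15 (SE). Its other 2 probe sets were also lower, by -0.25 and -0.47. Col1a1, the main stromal collagen chain, had signals of 3.37 and 3.32 in wild type and 3.10 and 2.65 in KPAW, a smaller difference of -0.22 ± 0.24. The other probe set of Col1a1 overlapped, with a difference of -0.11.

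All 3 chains of collagen VI, the beaded filament collagen around stromal cells, lay lower. Col6a1 signals were 0.852 and 0.756 in wild type and 0.635 and 0.642 in KPAW (-0.32 ± 0.14). Col6a2 signals were 1.11 and 1.03 in wild type and 0.803 and 0.745 in KPAW (-0.46 ± 0.15). Col6a3 signals were 1.41 and 1.07 in wild type and 0.871 and 0.774 in KPAW (-0.56 ± 0.22). The spread of the wild-type arrays was widest for Col6a3, yet no KPAW array reached the lower wild-type array for any of the 3. All 6 chains of basement membrane collagen IV, Col4a1 to Col4a6, lay lower as well, by -0.22 to -0.37.

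The promoter stretches of 3 collagens that lay lower are shown for comparison with the keratins, in the same form.
Col5a1, GRCm38.p6, chr2:27886325-27886424, plus strand: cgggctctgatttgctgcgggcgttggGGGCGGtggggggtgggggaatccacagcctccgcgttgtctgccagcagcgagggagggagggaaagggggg
Col6a1, GRCm38.p6, chr10:76726045-76726144, minus strand: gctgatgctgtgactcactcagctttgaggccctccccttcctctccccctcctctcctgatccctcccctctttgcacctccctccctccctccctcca
Col6a2, GRCm38.p6, chr10:76623405-76623504, minus strand: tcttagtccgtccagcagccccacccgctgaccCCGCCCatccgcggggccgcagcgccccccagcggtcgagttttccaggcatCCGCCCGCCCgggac
GGGCGG stands 73 bases before the start of Col5a1, and on the opposite strand 3 times in the stretch of Col6a2, where 2 of the matches overlap. It is not in the stretch of Col6a1. Within 250 bases before the start, GGGCGG, on either strand, was found in 13 of the 20 collagen genes with a sequence (65.0%) and in 32.9% of all promoters. TATAAA was found in 2 of the 20.

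Other stromal genes were split. Of 36 stroma matrix genes measured, 18 lay lower and 3 higher, or 50% and 8.33% against 18.8% and 14.9% of all genes. The median was -0.15, and 4 reached an unadjusted p under 0.05, all lower, against 1.23% of all genes. Decorin (Dcn), a small proteoglycan that binds collagen fibrils, had signals of 2.64 and 2.48 in wild type and 2.08 and 1.90 in KPAW (-0.36 ± 0.15). Keratocan (Kera), the keratan sulfate proteoglycan made by corneal keratocytes, had signals of 0.452 and 0.469 in wild type and 0.327 and 0.295 in KPAW (-0.54 ± 0.23). Both are made by stromal cells, and for both the KPAW arrays lie close together and below wild type. Osteoglycin (Ogn), of the same family of proteoglycans, had signals of 1.18 and 1.22 against 0.775 and 0.867 (-0.54 ± 0.20). Elastin (Eln), the core of elastic fibres, had signals of 1.05 and 0.982 against 0.790 and 0.826 (-0.32 ± 0.13). On the values as deposited the median of the stroma list was 0.04, against 0.17 for all genes, and 2 of the 36 lay lower, so its sign and count depend on the scaling.

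**Figure D3:**
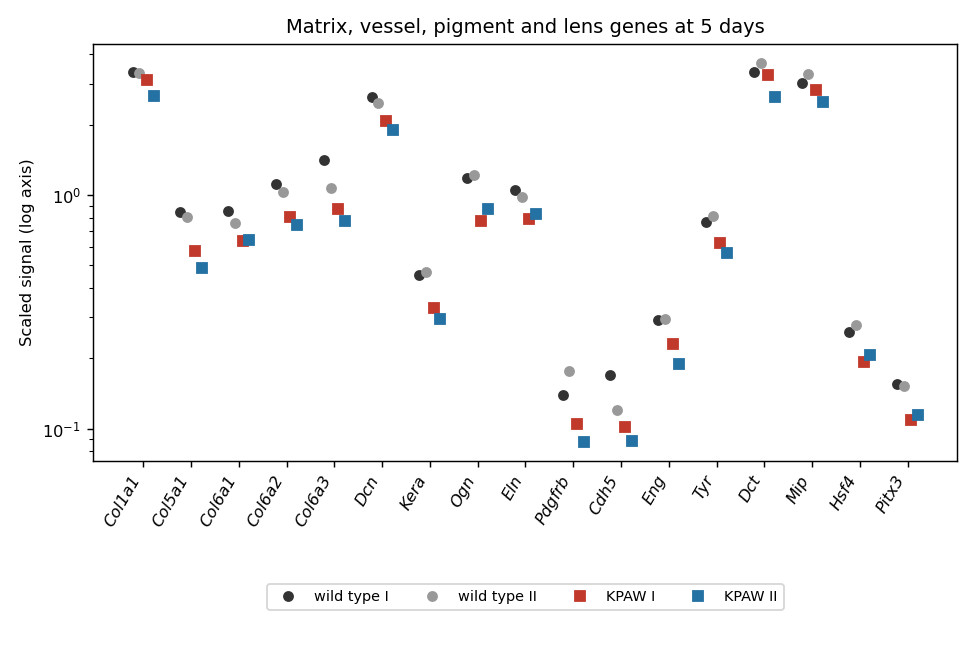
Scaled signal (log axis) of matrix, vessel, pigment and lens genes on each of the 4 arrays of 5 days. Each gene shown has both KPAW squares below both wild-type circles, with distances from -0.22 (Col1a1) to -0.62 (Col5a1) on the log2 scale. The genes were picked from those named in the text, and overlapping ones such as Pecam1 and Cryaa are not shown. That all of them lie lower follows from this choice.

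Vessel genes leaned the same way with more overlap. Of 25 endothelial and pericyte genes measured, 14 lay lower and none higher, or 56% lower against 18.8% of all genes. The median was -0.17 (0.03 as deposited). As deposited 2 of the 25 lay lower, or 8% against 1.496% of all genes. The largest distance was that of Pdgfrb, the receptor on pericytes, with 0.139 and 0.177 in wild type and 0.104 and 0.0879 in KPAW (-0.61 ± 0.19). VE-cadherin (Cdh5), the adhesion molecule of endothelial junctions, had signals of 0.169 and 0.120 in wild type and 0.101 and 0.0888 in KPAW (-0.50 ± 0.20). Endoglin (Eng), an endothelial co-receptor of the TGF-beta family, had signals of 0.290 and 0.295 against 0.231 and 0.190 (-0.44 ± 0.19). The other probe set of Eng overlapped, with a difference of -0.10. Pecam1, another defining endothelial marker, overlapped, at 0.122 and 0.0893 in wild type and 0.102 and 0.106 in KPAW. In bulk eyes, fewer cells of a type and less RNA per cell cannot be told apart.

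**Figure D4:**
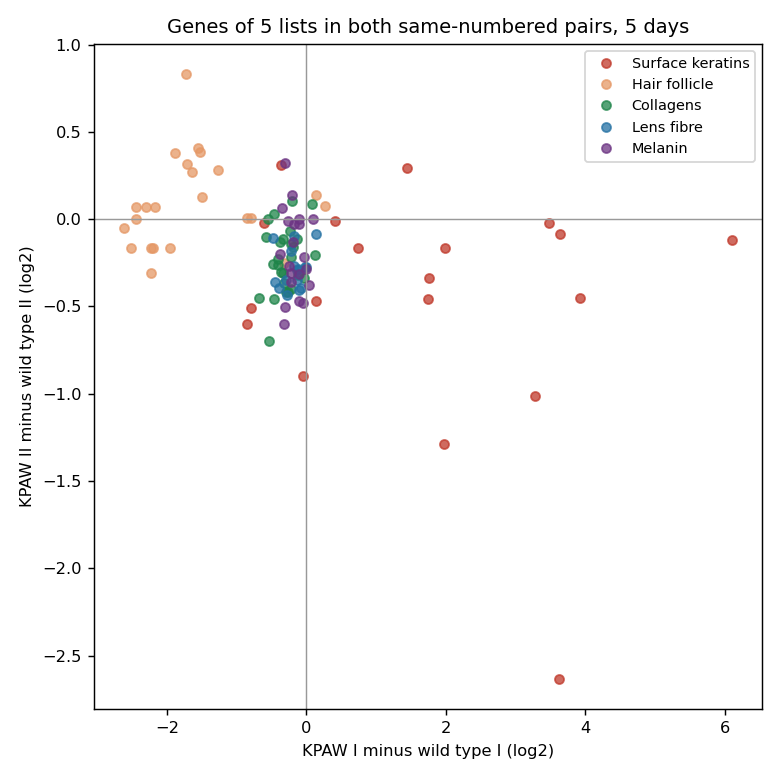
Log2 difference of KPAW from wild type in the arrays numbered I (horizontal) and in those numbered II (vertical), 1 point per gene of 5 lists. Collagens (green) cluster below 0 on both axes, with medians of -0.33 and -0.23; surface keratins spread to the right and downward, and hair follicle genes lie to the left, with medians of -1.72 and 0.07.

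Lens fibre genes leaned lower too, and the crystallins depended on the scaling and on KPAW II. Of 16 lens fibre genes measured, 12 lay lower and none higher, or 75% lower against 18.8% of all genes. The median was -0.23 in either KPAW array (-0.03 for the list as deposited, when 0 of the 16 lay lower). Pitx3, a transcription factor of lens fibre differentiation, had signals of 0.155 and 0.152 in wild type and 0.108 and 0.114 in KPAW (-0.40 ± 0.14). Hsf4, the heat shock factor that drives lens gene expression, had signals of 0.259 and 0.277 against 0.193 and 0.206 (-0.39 ± 0.17). Tdrd7, an RNA granule component required for a clear lens, had signals of 2.32 and 2.43 against 1.91 and 1.79 (-0.36 ± 0.15). All 3 are regulators, and in each the KPAW arrays lie closer to each other than to wild type. The water channel of fibres, Mip, had signals of 3.01 and 3.31 against 2.81 and 2.49 (-0.25 ± 0.16).

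On the scaled values all 14 crystallins, the bulk proteins of the lens, were lowest in KPAW II. Of 9365 genes with neither KPAW II nor wild type at the lowest value of the file, 2438 were lowest in KPAW II. Of the 14, 6 lay lower in both KPAW arrays (42.9%, against 18.8% of all genes). As deposited, KPAW II was the lowest array for 0 of the 14 and none lay lower, with Cryaa at 6.98 and 6.91 in wild type, 7.45 in KPAW I and 7.002 in KPAW II. The list median was -0.03 in KPAW I and -0.35 in KPAW II. Cryba4 had signals of 7.53 and 7.52 in wild type, 6.82 in KPAW I and 5.37 in KPAW II (-0.31 ± 0.18). Cryaa, the lens alpha crystallin, overlapped, with 7.60 and 8.74 in wild type, 8.63 in KPAW I and 6.31 in KPAW II. All 14 are among the 1899 genes of highest signal, and under quantile normalization, which gives every array the same distribution, their median was -0.01. The lens fibre median under that setting was -0.17.

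Pigment genes were lower or overlapped. Of 21 melanin synthesis and melanosome genes measured, 12 lay lower, 9 overlapped and none lay higher. The share that lay lower was 57.1%, against 18.8% of all genes. The median was -0.16 (0.01 as deposited). As deposited 2 of the 21 lay lower, or 9.52% against 1.496% of all genes. Mitf, the master regulator of pigment cells, had signals of 0.271 and 0.295 in wild type and 0.213 and 0.188 in KPAW (-0.46 ± 0.20). Tyrosinase (Tyr), the first enzyme of melanin synthesis, had signals of 0.769 and 0.812 in wild type and 0.621 and 0.566 in KPAW (-0.40 ± 0.18). The 2 other probe sets of Tyr did not show this, with differences of 0.21 and 0.11. Dct, the next enzyme of the pathway, had signals of 3.37 and 3.68 against 3.27 and 2.63 (-0.26 ± 0.17), and Gpnmb, a melanosome glycoprotein, had 0.622 and 0.634 against 0.533 and 0.490 (-0.29 ± 0.15). Oca2, the melanosome channel protein, had signals of 0.264 and 0.263 against 0.197 and 0.227 (-0.29 ± 0.15). Of 16 pigment epithelium and visual cycle genes, 7 lay lower and 1 higher, or 43.8% and 6.25% against 18.8% and 14.9% of all genes. As deposited, 0 of the 16 lay lower. Stra6, the retinol uptake receptor, had signals of 0.342 and 0.203 in wild type and 0.202 and 0.149 in KPAW (-0.55 ± 0.25), so wild type II and KPAW I almost met.

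The photoreceptor lists lay near 0. Of 28 rod genes measured, 6 lay higher and 4 lower (21.4% and 14.3%), with a median of 0.03. Of 10 cone genes 4 lay higher and 2 lower (40% and 20%), with a median of 0.02. Among all genes 14.9% lay higher and 18.8% lower. Nrl, the factor that commits cells to the rod fate, had signals of 2.41 and 2.59 in wild type and 2.62 and 2.57 in KPAW. The rod transducin gene Gnat1 had signals from 0.0614 to 0.0772 on the 4 arrays, in overlapping groups. Among cone genes, Gnb3, a cone transducin subunit, had signals of 0.400 and 0.458 against 0.488 and 0.656 (0.39 ± 0.20). Thrb, the thyroid hormone receptor that patterns cone opsins, had signals of 0.0735 and 0.0742 against 0.0908 and 0.102 (0.30 ± 0.18). Both cone genes lay higher in KPAW, while Gnat2, the cone transducin alpha subunit, lay lower at 0.272 and 0.295 against 0.321 and 0.376.

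Ganglion cell genes lay lower mainly in KPAW I. Of 21 measured, 9 lay lower and 1 higher, or 42.9% and 4.76% against 18.8% and 14.9% of all genes. The list median was -0.40 in KPAW I and -0.01 in KPAW II. These are scaled values, and as deposited 0 of the 21 lay lower. Slc17a6, the vesicular glutamate transporter of these projection neurons, had signals of 0.219 and 0.199 in wild type, 0.144 in KPAW I and 0.164 in KPAW II (-0.40 ± 0.16). A second probe set of the gene differed by 0.02. Thy1, a surface glycoprotein of ganglion cells, had 0.486 and 0.461, then 0.340 and 0.409 (-0.33 ± 0.14). Sncg, gamma synuclein, had 0.460 and 0.386, then 0.291 and 0.365 (-0.35 ± 0.16). In each the lower value is that of KPAW I, the array with the higher surface keratin signals, whose part in the difference was not tested. The neurofilament gene Nefl overlapped, with 1.44 and 1.60 in wild type and 1.33 and 1.56 in KPAW.

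Glial genes resembled this pattern, with 7 of 17 lower (41.2%), 1 higher (5.88%), and medians of -0.16 in KPAW I and 0.05 in KPAW II. As deposited, 0 of the 17 lay lower. Gfap, the intermediate filament of astrocytes, had signals of 0.697 and 0.473 in wild type and 0.316 and 0.411 in KPAW (-0.64 ± 0.30), and its second probe set differed by -0.72. The Mueller glia enzyme Glul overlapped, at 0.618 and 0.589 against 0.588 and 0.658.

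Progenitor and eye field genes were about evenly divided. Of 26 retinal progenitor genes, 7 lay higher and 5 lower (26.9% and 19.2%, median 0.08). Of 21 eye field transcription factors 4 lay higher and 2 lower (19% and 9.52%, median 0.04). Rax, an early eye field factor, had signals of 0.213 and 0.261 in wild type and 0.276 and 0.350 in KPAW (0.37 ± 0.22). Pax6, the master regulator of eye development, overlapped, with 0.699 and 0.974 in wild type and 0.934 and 1.01 in KPAW (0.23 ± 0.20). Its other 3 probe sets differed by 0.08, 0.03 and -0.11. Of 32 cell cycle genes, 6 lay lower and none higher, with a median of 0.00. The share that lay lower, 18.8%, is that of all genes, of which 14.9% lay higher. The proliferation marker Mki67 overlapped at 0.445 and 0.305 against 0.336 and 0.356.

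Among all genes with separate groups, the largest moderated statistics in the higher direction belonged to few tissue markers. Cap1, a regulator of actin filament turnover, had signals of 0.309 and 0.284 in wild type and 0.645 and 0.508 in KPAW (0.90 ± 0.15). Its other probe set differed by 0.90 as well, and it had the largest statistic of the genes with separate groups. Aqp5, the water channel of corneal epithelium and glands, had signals of 0.0109 and 0.0171 in wild type, 0.0960 in KPAW I and 0.0405 in KPAW II (1.28 ± 0.27). The lower wild-type value is the lowest of the file after scaling, and Aqp5 was among the probe sets called without KPAW II, beside the surface keratins. Rbp2, a cellular retinol-binding protein, had 0.0122 and 0.0138 against 0.0768 and 0.0367 (1.14 ± 0.27). Kdf1, a regulator of epidermal differentiation, had 0.0272 and 0.0240 against 0.0763 and 0.0545 (0.88 ± 0.21).

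Several others lay higher with near-equal KPAW arrays. Lin7b, a scaffold protein of cell junctions and synapses, had signals of 0.0240 and 0.0154 in wild type and 0.0527 and 0.0554 in KPAW (0.89 ± 0.22). Sidt2, a lysosomal membrane protein, had 0.153 and 0.148 against 0.299 and 0.277 (0.85 ± 0.24). Slc31a2, a copper transporter homologue, had 0.0788 and 0.0884 against 0.157 and 0.175 (0.84 ± 0.22), and its other probe set differed by 0.29. Kat6a, a histone acetyltransferase, had 0.486 and 0.549 against 0.729 and 0.720 (0.47 ± 0.13). Of the rest, Grik5, a kainate receptor subunit, Entpd2, an ectonucleotidase, Slc30a5, a zinc transporter, and the transcript Cdiptos lay higher by 0.51 to 0.71.

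The largest folds in the higher direction among genes with a group mean of at least 0.1 rested mainly on KPAW I. Sprr2d, a cornified envelope precursor, had signals of 0.0165 and 0.0260 in wild type, 0.834 in KPAW I and 0.0294 in KPAW II (2.31 ± 1.16). S100a9, an alarmin of neutrophils and stressed epithelium, had 0.0109 and 0.0167, then 0.498 and 0.0191 (2.05 ± 1.08). Sprr2f had 0.0109 and 0.0126, then 0.230 and 0.0189 (1.61 ± 0.86). In all 3 genes KPAW II exceeded the higher wild-type array by little, whereas Magi1, a junction scaffold, had both KPAW arrays high at 0.184 and 0.218 against 0.0897 and 0.0619 (1.21 ± 0.36). Its other probe set differed by -0.20. Zbtb14, a zinc finger protein, had 0.0748 and 0.0572 against 0.122 and 0.184 (0.98 ± 0.32), and its other 3 probe sets differed by 0.08 to 0.30.

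In the lower direction, the largest statistic was that of Fads3, a fatty acid desaturase family member, with signals of 0.0799 and 0.0514 in wild type and 0.0260 and 0.0149 in KPAW (-1.06 ± 0.23). Adarb1, an RNA-editing adenosine deaminase, had 0.0550 and 0.0570 against 0.0271 and 0.0243 (-0.72 ± 0.16), though its other probe set differed by -0.06. Atg13, of the autophagy initiation complex, had 0.185 and 0.181 against 0.115 and 0.0917 (-0.72 ± 0.16), and its other probe set lay in the opposite direction at 0.37. Probe sets of 1 gene thus disagreed for several of these names. Ide, the insulin-degrading enzyme, had 0.509 and 0.462 against 0.352 and 0.279 (-0.60 ± 0.15), with -0.16, 0.06 and 0.30 for its other 3. Khdrbs1, an RNA-binding signal adaptor, had 0.561 and 0.684 against 0.415 and 0.392 (-0.59 ± 0.16), with -0.66 to 0.24 for its other 4.

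Genes with a single probe set also lay lower. Alox12e, an epidermal lipoxygenase, had signals of 0.208 and 0.197 in wild type and 0.0690 and 0.0930 in KPAW (-1.14 ± 0.31). Ssna1, a centrosomal protein, had 0.899 and 0.937 against 0.625 and 0.667 (-0.49 ± 0.13). Pcp4, a calmodulin regulator of neurons, had 1.14 and 1.01 against 0.769 and 0.770 (-0.47 ± 0.13). For Ssna1 and Pcp4 the KPAW arrays differed from each other by less than the wild-type arrays did from KPAW. Pdlim4, an actin-associated LIM protein, had 0.0881 and 0.0779 against 0.0452 and 0.0387 (-0.72 ± 0.20). Gcg, the glucagon precursor, had 0.142 and 0.244 against 0.0786 and 0.0990 (-0.93 ± 0.25), and Cd248, a stromal and pericyte glycoprotein, had 0.173 and 0.117 against 0.0773 and 0.0705 (-0.79 ± 0.27). Gli2, a transcription factor of hedgehog signalling, rested on 1 array, with 0.105 and 0.107 in wild type, 0.0153 in KPAW I and 0.0930 in KPAW II.

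C1qb, a chain of the first complement component that macrophages and microglia make, had signals of 0.192 and 0.243 in wild type and 0.112 and 0.110 in KPAW (-0.85 ± 0.24). Its other probe set differed by -0.40. The macrophage list as a whole did not follow, with 2 genes lower and 2 higher of 19 (10.5% each) and a median of 0.15. Both shares were below those of all genes, 18.8% lower and 14.9% higher. The receptor Csf1r, which marks all macrophages, overlapped at 0.423 and 0.444 against 0.458 and 0.384. Another probe set of Csf1r lay lower, by -0.33, and a further probe set overlapped, with a difference of -0.00.

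Immediate early genes are the transcripts induced within minutes of a stimulus or of dissection. Of 23 measured, 7 lay higher and 2 lower, or 30.4% and 8.7% against 14.9% and 18.8% of all genes. Their median was 0.34 in KPAW I and 0.07 in KPAW II. Junb had signals of 0.0719 and 0.0715 in wild type, 0.138 in KPAW I and 0.0863 in KPAW II (0.49 ± 0.21). Ier3 had 0.204 and 0.187, then 0.338 and 0.233 (0.48 ± 0.20), and Jun had 0.278 and 0.262, then 0.358 and 0.317 (0.30 ± 0.13). In all 3 the higher value is that of KPAW I, and a second probe set of Jun overlapped, with a difference of 0.31. Among imprinted growth genes, 6 of 13 lay lower (46.2%) and 2 higher (15.4%). As deposited, 0 of the 13 lay lower. Of the 13, 10 were among the 1899 genes of highest signal, of which 27.9% lay lower. Peg3, a zinc finger protein of fetal growth, had 0.952 and 0.966 against 0.639 and 0.777 (-0.43 ± 0.19), though its other 2 probe sets differed by 0.03 and -0.29. Muscle genes set the KPAW arrays apart, with a median of -0.38 in KPAW I and 0.20 in KPAW II. Tnni2, a fast muscle troponin, had 0.547 and 0.358 in wild type, 0.182 in KPAW I and 0.620 in KPAW II. Acta1, skeletal muscle actin, had 1.74 and 1.23, then 1.14 and 1.69, so for both the KPAW arrays stand on either side of a wild-type array. Among the genes furthest above KPAW I in KPAW II was also Slc15a2, a peptide transporter, with 0.209 and 0.523 in wild type, 0.242 in KPAW I and 0.865 in KPAW II.

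The change of the KPAW difference with age was tested as an interaction over the same 15838 probe sets. No probe set passed (limma, lowest adjusted p 0.292), with 932 at an unadjusted p under 0.05. Without KPAW II of 1 month 306 probe sets passed, without KPAW II of 5 days 11, and on the values as deposited 36. The 2 genes at the lowest adjusted p of 0.292 were close to wild type at 5 days and far from it at 1 month. H2-D1, a class I histocompatibility antigen, differed by 0.05 at 5 days and -2.21 at 1 month. Its 5-day signals were 0.372 and 0.305 in wild type and 0.415 and 0.296 in KPAW. At 1 month they were 0.986 and 0.795 in wild type and 0.177 and 0.173 in KPAW. Other probe sets of H2-D1 differed by -0.05, -0.03 and 0.13 at 5 days. Rptn, a cornified envelope protein, differed by 0.09 at 5 days and 4.20 at 1 month. Its 5-day signals were at or near the lowest value of the file, at 0.0129 and 0.0126 in wild type and 0.0140 and 0.0158 in KPAW. The ages also differed in Xist, which at 1 month had signals of 0.0817 and 0.0523 in wild type and 0.0861 and 0.0621 in KPAW. At 5 days Xist was as low in KPAW I alone (0.0821), with 2.95 and 3.64 in wild type and 3.13 in KPAW II. The part of sex or of strain in any comparison of the ages was not tested.

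The next genes by this statistic had an adjusted p of 0.65. With a 5-day difference above that of 1 month these were Aqp5 (1.28 and -0.75), Ppil4, a cyclophilin-like protein (0.53 and -0.90), Egln3, an oxygen-sensing hydroxylase (0.10 and -1.04), and Ppp1r3c, a glycogen-targeting subunit (-0.14 and -1.42). With a 5-day difference below that of 1 month these were Kdelr3, an endoplasmic reticulum retrieval receptor (-0.42 and 0.98), Teddm3 (-0.02 and 1.93), Tmem87a (0.49 and 2.01) and Cxcl17, a mucosal chemokine (-0.21 and 1.35). Aqp5 and Kdelr3 lay apart from wild type at both ages in opposite directions, as did Ppil4.

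Of the 27 collagens, 15 lay lower in KPAW at 5 days and higher at 1 month, or 55.6% against 4.47% of all genes, and 18 lay higher at 1 month where 18.2% of all genes did. Col5a1 differed by -0.62 at 5 days and 0.46 at 1 month (interaction adjusted p 0.70, limma), and Col1a1 by -0.22 and 1.17. The same turn was found in 12 of 36 stroma matrix genes, 7 of 21 melanin genes and 5 of 16 lens fibre genes. It depended on the scaling: on the values as deposited it was found in 0 genes of each of these 4 lists and in 0.158% of all genes. Krt12 lay higher at 5 days and lower at 1 month, by 0.39 and -2.32. Its 5-day difference was smaller than its SE, and its 1-month difference averages KPAW signals that lay far apart, as given above. None of these genes passed the interaction test.

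**Figure D5:**
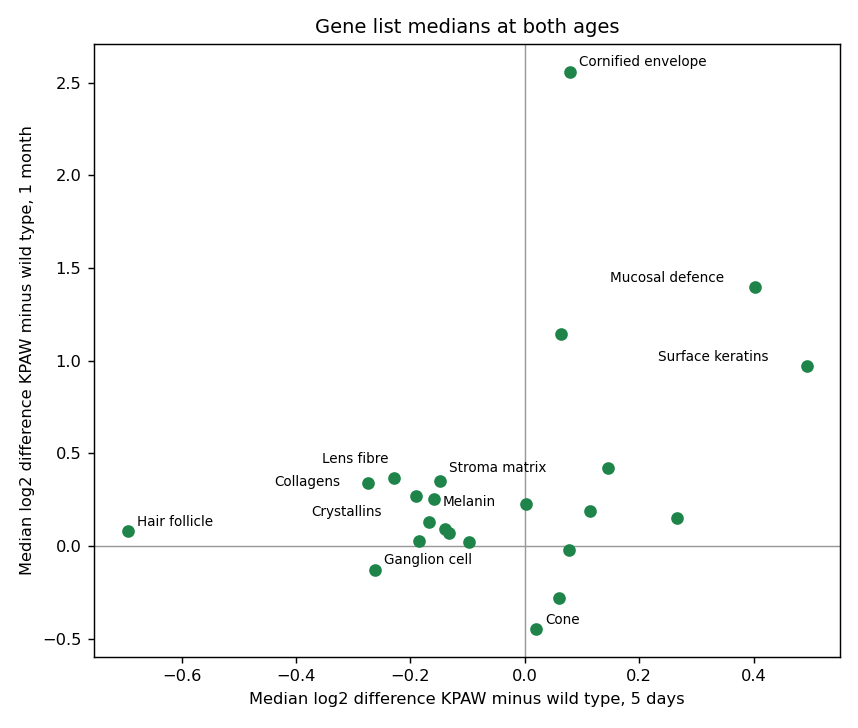
Median log2 difference between KPAW and wild type per gene list at 5 days (horizontal) and at 1 month (vertical); the rod list, at 0.03 and -1.96, is left off to keep the scale. Collagens, lens fibre, crystallins, stroma matrix and melanin lie together in the upper left, lower in KPAW at 5 days and higher at 1 month, on scaled values.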

How the data were processed

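Eye RNA was hybridized to 8 arrays, and the 4 of 5 days are described. The authors deposited a table that holds, per the file headers, a signal for every probe set on every array, taken here as linear. Their software is not given in the sources. Controls had a median of 1 on every array, and 0.01 was the lowest value. With 2 arrays per group, their number limits the precision.

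The 64 controls were left out. Arrays were multiplied to a common trimmed mean, which had run from 0.142 to 0.253 with 2% cut from each end. Probe sets with a mean above the 30th percentile were kept. Values of log2(signal + 0.0211), the 20th percentile, were fitted in limma 3.58.1 (R 4.3.3) with a mean per group over all 8 arrays and a variance trend, on 4 residual degrees of freedom. Standard errors come from this fit, and folds on this scale understate the change of low genes. The fit was also run on simulated data with independent noise, which lack the tissue and sex differences between these arrays.

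Of 22626 probe sets, 20380 carried 1 symbol, 691 several and 1555 none. A gene was represented by its kept probe set of highest signal. The 35 gene lists held 836 genes, of which 720 were on the array and 617 were kept. Named genes were those with separate groups and the 12 largest moderated statistics in each direction, the 6 largest folds in each among those with a group mean of at least 0.1, the 8 furthest apart between the KPAW arrays each way, 5 per direction for the interaction, up to 4 per list, and fixed markers. Col4a1 to Col4a6, Dsc2, Sprr2h, Gsto1 and the list counts over both ages were chosen after their values were seen. Members and lists were chosen with earlier results of these data known. Alternatives changed the scaling, pseudocount, filter, variance trend, arrays and block. Promoters are RefSeq's. Python 3.11.15, pandas 2.3.3 and matplotlib 3.10.9 were used.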

Additional observations from a re-analysis of the deposited data

Results flagged for a closer look

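For 9 gene lists, the median of both KPAW arrays lay on one side of wild type at 5 days and on the other side at 1 month. These are scaled values; as deposited, no collagen, stroma matrix, melanin, lens fibre or crystallin gene lay lower at 5 days and higher at 1 month. This difference between ages was not tested for the lists. For their single genes the interaction was tested and none passed. The difference of the ages (5 days minus 1 month, median over the genes, log2) was -0.63 for collagens, with -0.31 and -0.27 in KPAW I and II at 5 days and 0.51 and 0.24 at 1 month. It was -0.61 for lens fibre genes, -0.50 for stroma matrix genes, -0.45 for crystallins and -0.44 for melanin genes. Smaller differences were those of cell cycle genes (-0.22) and of 6 aquaporins (-0.20). It was 1.95 for rod genes and 0.61 for cone genes, whose 5-day medians were within 0.10 of wild type. At 1 month the rod median was -3.89 in KPAW I and -0.02 in KPAW II, so the rod value rests on KPAW I.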

How the results depend on the processing

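The count of 0 probe sets called at 5 days held under quantile normalization, median scaling, values as deposited, other pseudocounts and filters, no variance trend, the 5-day groups alone and array weights, with 259 to 638 probe sets at an unadjusted p under 0.05. Leaving out an array gave 0 to 27 calls, the 27 without KPAW II of 5 days. For the interaction, leaving out an array gave 0 to 306 calls, and the values as deposited gave 36. With the replicate number as a block, 0 probe sets were called at 5 days and 3 in the interaction. The deviations of same-numbered arrays correlated at 0.31 at 5 days and 0.02 at 1 month, with 2 pairs per age, and the labels do not say that a number pairs arrays. Using only the arrays numbered II at 5 days, an alternative chosen after seeing the data, gave 0 calls for both.

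The counts of genes lower in every KPAW array were recomputed after seeing the data. On the values as deposited they were 1 for collagens, 2 for stroma matrix, 0 for lens fibre, 2 for melanin and 2 for endothelium, where 26.1% of all genes lay higher and 1.496% lower. Unscaled, the median of all probe sets was 0.18. Quantile normalization and median scaling left these 5 counts within 1.5 times. Without an array the counts ran from 22 to 24 for collagens, 21 to 25 for stroma matrix, 12 to 15 for lens fibre, 14 to 16 for melanin and 16 to 21 for endothelium, where 33.1% to 38.4% of all genes were lower, up from 18.8%, since fewer arrays had to separate. With only the arrays numbered II, 24 collagens were lower where 51.0% of all genes were. Surface keratins higher in every KPAW array numbered 1, and 2 under quantile normalization, 5 as deposited, 2 with only the arrays numbered II (49.0% of all genes), and 1 to 14 without an array (28.04% to 35.0% of all genes). Among the genes with a fold named, the sign of Pax6 reversed when an array was left out (-0.0018, without wild type I, to 0.47), and no other reversed. Aqp5 and Xist passed only without KPAW II. Of the list medians, 105 of 699 values moved by more than the spread between the KPAW arrays.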
